A study of Mus musculus with 27 samples.

Results

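The nuclear-encoded subunits of respiratory complexes II to V, with the electron carrier cytochrome c, were read on the microarrays as 48 genes of the 18193 genes measured. The members were all genes whose symbol was Sdha to Sdhd, Cyc1 or Cycs, or began with Uqcr, Cox4, Cox5, Cox6, Cox7, Cox8 or Atp5. They comprised 4 genes of complex II, 9 of complex III, Cycs itself, 17 of complex IV and 17 of complex V. Each array carried the RNA of the epididymal adipose tissue (EAT) of 1 male C57BL/6J mouse. Mice arrived at 5 weeks of age, ate a standard diet for 1 week, and were then kept on 1 of 3 diets for 18 weeks. The diets were a Western diet containing 0.05% quercetin (9 mice), the same Western diet without it (9 mice), and the AIN93G control diet (9 mice). Both Western diets drew 39.9% of their energy from fat and 34.0% from sucrose and held 0.15% cholesterol. Mice were housed 3 per cage, and which mice shared a cage is not given, so that p-values treat mice that shared a cage as separate. No group carried a genetic change.

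Respiratory complexes pass electrons along the inner mitochondrial membrane. Complex II takes them from succinate, complex III passes them from ubiquinol to cytochrome c, and complex IV, cytochrome c oxidase, hands them to oxygen. Complexes III and IV move protons across the membrane as they do so, and complex V, the ATP synthase, lets protons back through its membrane part to make ATP. White adipocytes use this chain for lipid synthesis and fatty acid oxidation, and several complex IV subunits have separate isoforms in muscle, heart, lung, brown fat and testis.

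The tissue label was checked against marker genes. The mean log2 signal of 10 adipocyte markers lay between 12.00 and 12.29 on the quercetin arrays, between 11.91 and 12.19 on the Western arrays and between 11.81 and 12.33 on the control arrays. One protocol field names liver as the source of RNA, while the tissue field names EAT, and the mean of 7 hepatocyte markers ran from 3.96 to 11.8 over the arrays. It lay more than 3 above its median of 5.76 on 7 arrays, unevenly by diet. These were Western replicates 1, 4, 5 and 6, quercetin replicates 5 and 8, and control replicate 1. Testis markers were high on a few arrays, most on control replicate 6 (mean log2 signal 12.3). Smooth muscle markers were high on control replicates 2 and 4. Median signals per array before normalization ran from 25.1 to 54.3, and no pair of arrays correlated above 0.951. All values below are log2 signals after quantile normalization of the arrays, each gene being read by its single-gene probe set with the highest mean. A difference of such values is a log2 fold change, and a gene was called where the p-value of limma, adjusted over all 18193 genes, was under 0.05. In whole tissue, fewer cells of a type and less RNA per cell cannot be told apart. No filter on low signals was used, so that all 48 members were tested, of which 7 had a mean log2 signal under 8.

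Promoter sequences are shown for a member of complex II and 2 of complex V described below by mouse, and for a general and a muscle isoform of the same complex IV subunit. They are RefSeq windows on the mouse build GRCm38.p6, from 250 bases before to 50 bases after the start of the gene, read along the strand of the gene. Capitals mark matches, on either strand, to the letters searched for NRF1 (GCATGCGC), ETS/GABP (CCGGAAG), ERR (AAGGTCA), YY1 (AAGATGGC) and SP1 (GGGGCGGG). Matches that overlap form a single run of capitals. Sdhb (chr4:140961021-140961320, plus strand), Atp5pb (chr3:105959214-105959513, minus strand), Atp5k (chr5:108434350-108434649, minus strand), Cox8a (chr19:7217567-7217866, minus strand) and Cox8b (chr7:140900397-140900696, minus strand) read as follows.
Sdhb: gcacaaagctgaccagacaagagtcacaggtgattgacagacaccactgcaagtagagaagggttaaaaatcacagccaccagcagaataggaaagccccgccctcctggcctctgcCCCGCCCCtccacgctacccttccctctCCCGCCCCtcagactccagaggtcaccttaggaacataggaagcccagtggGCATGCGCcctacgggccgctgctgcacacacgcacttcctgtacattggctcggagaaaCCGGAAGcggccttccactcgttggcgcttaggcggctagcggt
Atp5pb: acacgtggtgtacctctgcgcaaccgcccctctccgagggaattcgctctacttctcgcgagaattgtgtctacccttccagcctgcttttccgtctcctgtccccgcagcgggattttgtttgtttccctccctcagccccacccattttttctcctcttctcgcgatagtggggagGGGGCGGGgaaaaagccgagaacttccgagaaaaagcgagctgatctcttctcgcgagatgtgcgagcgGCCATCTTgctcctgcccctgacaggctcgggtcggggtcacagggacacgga
Atp5k: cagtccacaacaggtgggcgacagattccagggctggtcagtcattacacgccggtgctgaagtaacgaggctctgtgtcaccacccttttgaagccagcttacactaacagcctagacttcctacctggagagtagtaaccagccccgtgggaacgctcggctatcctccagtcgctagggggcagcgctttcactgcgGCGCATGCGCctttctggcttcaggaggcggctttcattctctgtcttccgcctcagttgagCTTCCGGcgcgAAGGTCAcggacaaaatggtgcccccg
Cox8a: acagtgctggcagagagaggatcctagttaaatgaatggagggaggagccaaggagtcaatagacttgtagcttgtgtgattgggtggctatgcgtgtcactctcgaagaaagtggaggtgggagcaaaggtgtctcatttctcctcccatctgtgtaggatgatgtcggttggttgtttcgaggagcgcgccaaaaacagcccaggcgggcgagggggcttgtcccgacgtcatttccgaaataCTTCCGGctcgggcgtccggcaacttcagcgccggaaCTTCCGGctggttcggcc
Cox8b: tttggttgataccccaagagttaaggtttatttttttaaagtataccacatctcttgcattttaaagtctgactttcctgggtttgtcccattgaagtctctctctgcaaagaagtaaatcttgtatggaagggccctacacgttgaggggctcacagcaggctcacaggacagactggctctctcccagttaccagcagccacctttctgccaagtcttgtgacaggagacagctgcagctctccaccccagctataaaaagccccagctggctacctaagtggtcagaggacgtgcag

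A window was given for 36 of the 48 members. The NRF1 letters stood in 8 of these 36 (22.2%), against 3.05% of 27025 genes with a window, and the ETS/GABP letters in 13 (36.1%), against 9.93%. The ERR letters stood in 5 (13.9%, against 5.38% of all genes), the YY1 letters in 3 (8.33%, against 3.19%) and the SP1 letters in 9 (25%, against 18.4%). The Sdhb window held the NRF1, ETS/GABP and SP1 letters, the Atp5k window NRF1, ETS/GABP and ERR letters, the Atp5pb window YY1 and SP1 letters, and the Cox8a window the ETS/GABP letters at 2 places. None of the letters searched was found in the Cox8b window. These matches describe letters only.

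With quercetin against the Western diet, 1 of 9 genes of complex III and 1 of 17 of complex V passed the test as higher. Uqcrc2, a core protein of complex III, rose by a log2 fold change of 0.44, and Atp5pb, the b subunit of the stalk of complex V, by 0.23. These were 2 of 48 members, and 0 were lower. Of all genes, 0.253% were called higher and 0.077% lower. At an unadjusted p under 0.05, 25 members were higher and 0 lower by limma, where 7.31% and 6.41% of all genes were. By the methods' test (a test over the 3 diets, adjusted over all genes, with Tukey's comparison after it) 18 members were higher and 0 lower, with 2.61% and 2.91% of all genes. The log2 fold change was above 0 for 45 of 48 members, with a median of 0.155, whereas it was above 0 for 53.45% of all genes, with a median of 0.02. The 3 members at or below 0 were Cox4i2, Cox6a2 and Atp5g1. In no member did the 9 quercetin mice lie wholly above or wholly below the 9 Western mice, which was so for 0.214% and 0.055% of all genes. The 2 calls were not firm, for the number called ran from 0 to 12 when single arrays were left out, and was 0 without normalization between arrays (3 of all genes higher, 0 lower) or with a median shift alone (0 higher, 3 lower).

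On the Western diet, genes of each of the 4 complexes fell against control. Of the 48 members, 20 fell and 1, Atp5mpl, rose, whereas 6.44% of all genes were called lower and 11.3% higher. Among the called falls, the smallest change was -8.55%, for Cox6a1, and the largest -28.6%, for Uqcrc2. The median log2 fold change was -0.15 over the members and 0.00 over all genes, and 42 members were below 0. At an unadjusted p under 0.05, 27 members were lower and 3 higher, where 13.1% of all genes were lower and 17.6% higher. In 3 members, Uqcrc2, Sdhb and Uqcrb, every Western mouse lay below every control mouse, which was so for 0.346% of all genes, and 0.951% of all genes had the Western mice wholly above. The split of the calls depended on the scaling, with 0 members higher and 1 lower without normalization (1108 and 709 of all genes), and 1 member higher and 0 lower with a median shift alone (2326 and 578 of all genes). Of the 21 calls, 12 held without any single array and 9 did not, namely Uqcrh (lost without Western replicate 2 or control replicate 5), Atp5a1 (control replicate 5 or 8), Atp5c1 (Western replicate 3, 5 or 8 or control replicate 5 or 9), Cox4i1, Cox7a2, Cox6a1, Sdhc, Atp5j2 (17 arrays) and Uqcr11 (21 arrays). Western arrays enter both this comparison and the one with quercetin, so that the signs of both rest on the same 9 mice.

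Against the control diet, mice fed the Western diet containing quercetin had 2 members higher, Cox8b and Atp5mpl, and 0 lower, with 5% of all genes called higher and 1.65% lower. At an unadjusted p under 0.05, 5 members were higher and 2 lower, shares below those of all genes (14.5% and 7.36%). By the methods' test 2 were higher and 2, Uqcrfs1 and Sdha, lower, with 5.35% and 1.57% of all genes. The median log2 fold change was -0.003 and 23 of 48 members were above 0. For the 41 members other than tissue and testis isoforms it was above 0 in 20 as reported, in 33 without normalization and in 30 with a median shift, so that its direction depended on the scaling. Without normalization, 1 member, Cox8b, was called higher and 0 lower, among 268 genes higher and 38 lower. No member had non-overlapping diets, against 0.231% of all genes higher and 0.022% lower. A p that misses the threshold does not show that these diets were alike.

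**Figure D1:**
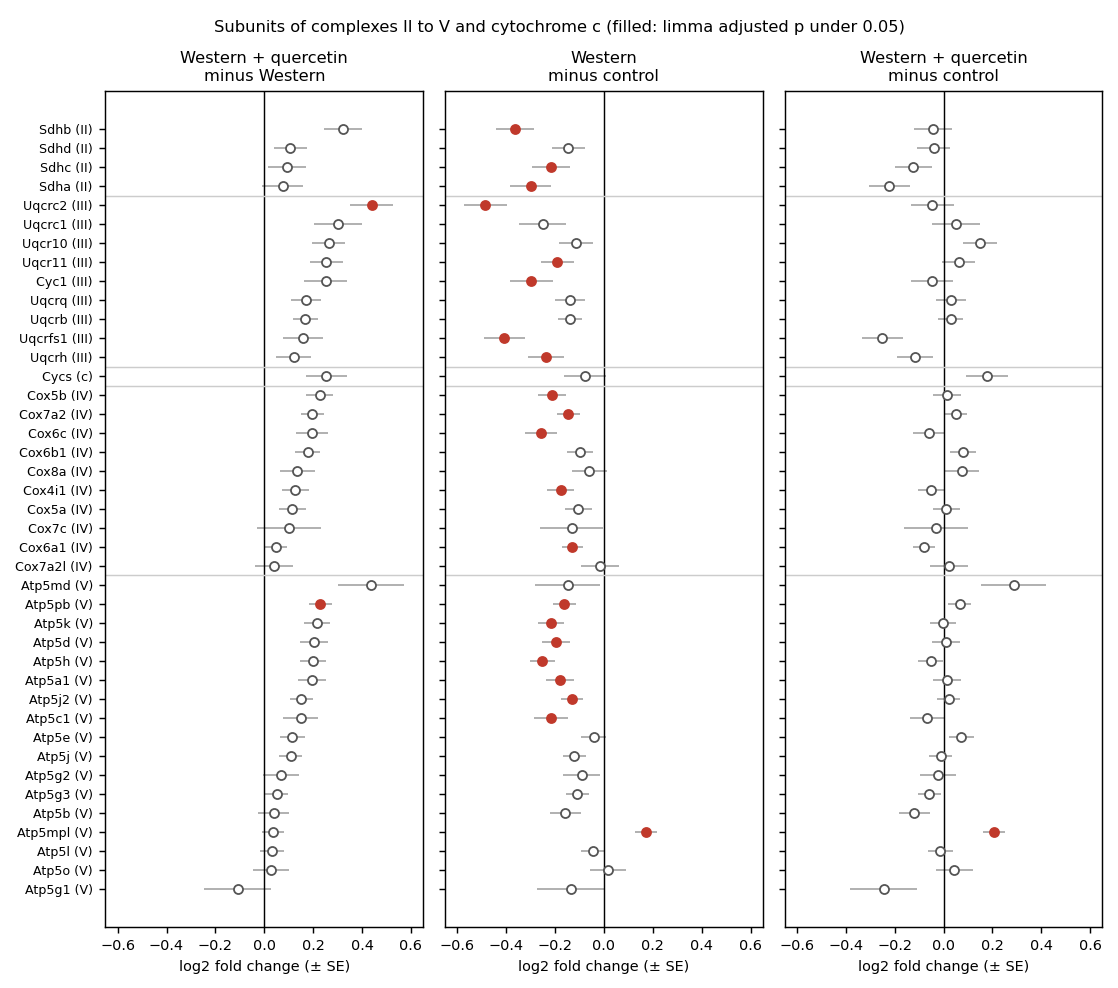
Log2 fold change (x axis, with its SE as bars) of each of the 41 members other than tissue and testis isoforms (y axis, grouped by complex) in the 3 comparisons after quantile normalization; filled points passed an adjusted p under 0.05 by limma. Of the 41 points, 40 lie above 0 for quercetin against the Western diet (31 with a median shift in place of quantile normalization), 2 for the Western against the control diet (16 with a median shift) and 20 for quercetin against the control diet (33 without normalization). With a median shift, 37 and 7 of the 41 members lay above the median of all genes in the first 2 comparisons.

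Complex II was called lower in 3 of its 4 genes on the Western diet and in 0 of 4, in either direction, with quercetin. Sdhb, the iron-sulphur subunit, had log2 signals from 10.97 to 11.66 (median 11.15) in mice fed quercetin, from 10.70 to 11.08 (median 10.92) in Western mice and from 11.09 to 11.62 (median 11.19) in control mice. In words, 8 of the 9 quercetin mice lay above all Western mice, and all Western mice lay below all control mice. The log2 fold change of Sdhb was 0.32 ± 0.08 (SE) for quercetin against the Western diet, which missed the threshold (limma adjusted p = 0.062). It was -0.36 ± 0.08 for the Western against the control diet (limma adjusted p = 0.0014), and -0.04 for quercetin against the control diet (limma adjusted p = 0.80).

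Sdha, the flavoprotein that oxidizes succinate, ran from 11.01 to 11.82 (median 11.32) with quercetin, from 11.16 to 11.40 (median 11.19) on the Western diet and from 11.31 to 11.86 (median 11.49) on the control diet. Western mice had less Sdha, as it fell by 0.30 on the log2 scale (SE 0.08, limma adjusted p = 0.013), and 7 of 9 lay below all control mice. With quercetin it overlapped both other diets, and 4 of 9 mice lay below all control mice. The difference of quercetin to the Western diet was 0.08 and that to the control diet -0.22, with limma adjusted p-values of 0.78 and 0.11. A second bright probe set of Sdha gave 0.24 and -0.11 for these, neither past the threshold, and -0.35 for the Western against the control diet. Of the membrane anchors, Sdhc fell on the Western diet (log2 fold change -0.22, limma adjusted p = 0.048), though its second probe set gave 0.09 and the call was lost without any 1 of 18 arrays. Sdhd, the other anchor, had 10.02 to 10.55 (median 10.27) with quercetin, 10.03 to 10.39 (median 10.10) on the Western diet and 10.07 to 10.58 (median 10.32) on the control diet. All 3 diets overlapped for Sdhd, and neither its 0.11 for quercetin against the Western diet nor its -0.15 for the Western against the control diet passed (limma adjusted p = 0.54 and 0.14).

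Complex III had the largest median difference with quercetin among complexes II to V, at a log2 fold change of 0.25 over its 9 genes, all of them above 0. It ran from 0.12 for Uqcrh, the hinge protein, to 0.44 for Uqcrc2, and 7 of the 9 had an unadjusted p under 0.05. On the Western diet all 9 were below 0 and 5 were called lower. These were Uqcrc2, Uqcrfs1, Cyc1, Uqcrh and Uqcr11.

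Uqcrc2 had log2 signals from 11.24 to 12.06 (median 11.48) in mice fed quercetin, from 10.95 to 11.26 (median 11.10) in Western mice and from 11.31 to 11.89 (median 11.50) in control mice. Of the quercetin mice, 8 of 9 lay above all Western mice, with replicate 3 the highest, and the Western mice all lay below the control mice. It rose with quercetin by 0.44 ± 0.09 (limma adjusted p = 0.031) and fell by 0.49 on the Western diet against control (limma adjusted p = 0.00028). Quercetin and control mice overlapped and differed by -0.05 (limma adjusted p = 0.82). Its second probe set gave 0.19 for quercetin against the Western diet, which did not pass, and -0.30 for the Western against the control diet. The rise with quercetin lost its call without any 1 of quercetin replicates 1 to 5 or of Western replicates 1, 3, 5, 7 and 8, with log2 fold changes between 0.37 and 0.48 over all 27 such fits.

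Uqcrfs1, the Rieske iron-sulphur protein, had 10.58 to 11.39 (median 10.88) with quercetin, 10.57 to 10.97 (median 10.73) on the Western diet and 10.95 to 11.39 (median 11.16) on the control diet. It fell on the Western diet by 0.41 on the log2 scale (SE 0.08, limma adjusted p = 0.00096), and 8 of 9 Western mice lay below all control mice. With quercetin it spread over the range of both other diets, and 6 of 9 mice lay below all control mice. Quercetin mice differed by 0.16 from Western mice (limma adjusted p = 0.42) and by -0.25 from control mice (limma adjusted p = 0.066). Cyc1, cytochrome c1, which hands electrons to cytochrome c, fell on the Western diet with a log2 fold change of -0.30 (limma adjusted p = 0.017) and had 0.25 with quercetin (limma adjusted p = 0.17).

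Uqcr10, a small subunit beside the Rieske protein, had 10.74 to 11.30 (median 10.99) with quercetin, 10.54 to 11.04 (median 10.75) on the Western diet and 10.59 to 11.00 (median 10.86) on the control diet. Quercetin gave 0.26 ± 0.07 against the Western diet (limma adjusted p = 0.081) and 0.15 against control (limma adjusted p = 0.20). The 3 diets overlapped, with 3 quercetin mice above all Western mice and 3 above all control mice. Uqcrb, the ubiquinone-binding subunit, was singled out after its values were seen because its Western and control mice did not overlap. Its signals ran from 12.91 to 13.03 in Western mice and from 13.05 to 13.19 in control mice, yet the log2 fold change of -0.14 missed the threshold (limma adjusted p = 0.057), and its second probe set gave 0.07.

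**Figure D2:**
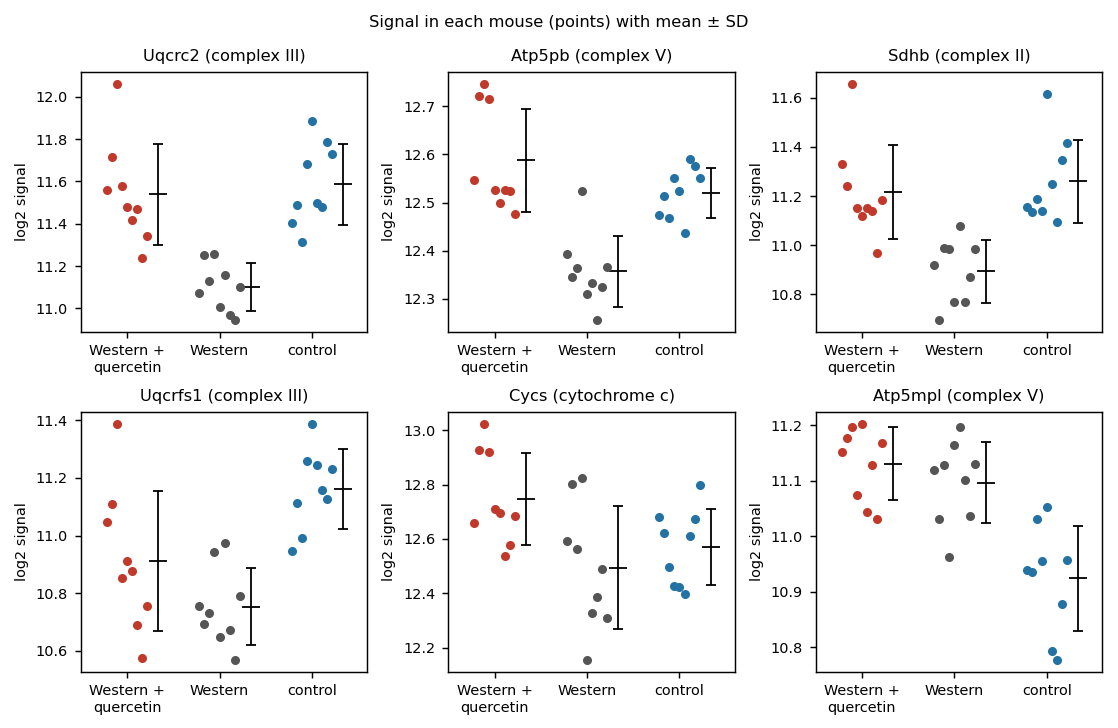
Log2 signal (y axis) of Uqcrc2, Atp5pb, Sdhb, Uqcrfs1, Cycs and Atp5mpl in each of the 27 mice (points) by diet (x axis), with the mean and SD of 9 mice as a bar beside the points. Western mice lie below all control mice for Uqcrc2 and Sdhb, and 8 of 9 quercetin mice lie above all Western mice for both.

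Cycs, cytochrome c, the soluble carrier between complexes III and IV, had 12.54 to 13.02 (median 12.70) with quercetin, 12.15 to 12.82 (median 12.49) on the Western diet and 12.40 to 12.80 (median 12.61) on the control diet. The diets overlapped, though 3 quercetin mice lay above all others. The log2 fold change was 0.25 ± 0.09 for quercetin against the Western diet and 0.18 for quercetin against control (limma adjusted p = 0.15 and 0.22). It was -0.08 for the Western against the control diet (limma adjusted p = 0.59). A probe set of Cycs with a lower mean, picked after its value was seen, gave 0.37 ± 0.07 with quercetin (limma adjusted p = 0.032 over probe sets).

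The 10 general subunits of complex IV are here its members, by symbol, other than tissue and testis isoforms, with Cox7a2l among them. Cox7c was read at a mean log2 signal of 6.26 and the others at 10.5 to 13.0. All 10 were above 0 with quercetin, with a median log2 fold change of 0.13. On the Western diet all were below 0, with a median of -0.13. With quercetin 0 of 10 passed, and 6 had an unadjusted p under 0.05. On the Western diet 5 of 10 fell, namely Cox4i1, Cox5b, Cox6a1, Cox6c and Cox7a2. With a median shift alone, the median of these 10 was 0.06 with quercetin and -0.01 on the Western diet. The medians of all genes were then -0.04 and 0.07.

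Cox7a2, a small subunit with a muscle counterpart in Cox7a1, had 12.66 to 12.98 (median 12.84) with quercetin, 12.53 to 12.71 (median 12.63) on the Western diet and 12.68 to 12.89 (median 12.80) on the control diet. Here 7 of 9 quercetin mice lay above all Western mice, and 6 of 9 Western mice lay below all control mice. The log2 fold change was 0.20 ± 0.05 with quercetin (limma adjusted p = 0.059) and -0.15 ± 0.05 on the Western diet (limma adjusted p = 0.031, lost without Western replicate 7 or 8 or control replicate 2 or 9). Its second probe set gave 0.22 and -0.16.

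Cox5b, the zinc-binding subunit, had 12.43 to 12.81 (median 12.58) with quercetin, 12.18 to 12.57 (median 12.33) on the Western diet and 12.42 to 12.70 (median 12.56) on the control diet. It fell on the Western diet by 0.21 on the log2 scale (SE 0.06, limma adjusted p = 0.0095), with 8 of 9 mice below all control mice. With quercetin it had 0.23 ± 0.06 (limma adjusted p = 0.077), and 5 of 9 mice lay above all Western mice. Averaging its 6 probe sets turned the Western difference to 0.03, and the dimmest of the 6, with a mean log2 signal of 0.49, gave 1.08 by itself.

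Of the general forms paired with a tissue isoform, Cox4i1 had 12.44 to 12.88 (median 12.59) with quercetin, 12.34 to 12.65 (median 12.45) on the Western diet and 12.57 to 12.74 (median 12.67) on the control diet. Cox4i1 fell on the Western diet (log2 fold change -0.18, limma adjusted p = 0.024, lost without Western replicate 7), where 7 of 9 mice lay below all control mice. Cox6a1 had 12.94 to 13.12 (median 13.02) with quercetin, 12.88 to 13.12 (median 12.95) on the Western diet and 12.99 to 13.21 (median 13.11) on the control diet. Its fall on the Western diet (log2 fold change -0.13, limma adjusted p = 0.043) was lost without any 1 of 13 arrays, and all 3 diets overlapped. Cox8a had 11.87 to 12.37 (median 12.08) with quercetin, 11.83 to 12.30 (median 11.96) on the Western diet and 11.73 to 12.28 (median 12.06) on the control diet. Its diets overlapped throughout, and neither its 0.14 with quercetin nor its -0.06 on the Western diet passed (limma adjusted p = 0.42 and 0.61).

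Of the isoforms of muscle, heart or lung, Cox8b moved furthest. Cox8b, the muscle and brown fat form of the smallest subunit, had 9.07 to 10.34 (median 9.69) with quercetin, 8.72 to 10.12 (median 8.95) on the Western diet and 7.46 to 10.18 (median 8.37) on the control diet. The diets overlapped, and Western replicate 3 and control replicate 3 were the highest of their diets. Cox8b was higher with quercetin than on the control diet, by 1.26 ± 0.27 (limma adjusted p = 0.0054). It had 0.54 for quercetin against the Western diet and 0.72 for the Western against the control diet, both short of the threshold (limma adjusted p = 0.37 and 0.060). Without the 10 arrays high in transcripts of other tissues, the difference of quercetin to the control diet was 0.87 and did not pass (limma adjusted p = 0.092).

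Western replicate 3 and control replicate 3 were also the 2 arrays on which Ucp1, the uncoupling protein of brown fat, had a log2 signal over 8, at 9.59 and 8.67, against 0.33 to 3.67 on the quercetin arrays. The mean of 7 brown adipocyte markers ran from 3.44 to 4.81 with quercetin, from 3.88 to 6.06 on the Western diet and from 2.70 to 5.64 on the control diet. Of these 7 markers, 2 rose on the Western diet against control, 2 were higher with quercetin than in control mice, and 0 were called for quercetin against the Western diet. Of all genes, 11.3% and 5% were called higher in the first 2, and 0.253% higher and 0.077% lower in the last. The median log2 fold change of the 7 was -0.14, 0.34 and -0.19 in these comparisons, in the same order. Leaving out both arrays, of which control replicate 3 was the highest control mouse for Cox8b, gave 1.48 for quercetin against control (limma adjusted p = 4.7e-05). The part of brown adipocyte transcripts in these differences was not tested.

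The other 3 tissue isoforms had low signals. Cox4i2, the lung form, had 4.08 to 5.03 (median 4.32) with quercetin, 4.01 to 4.96 (median 4.62) on the Western diet and 3.82 to 5.02 (median 4.48) on the control diet. Cox6a2, the heart and muscle form, had 4.86 to 5.76 (median 5.49) with quercetin, 4.72 to 6.12 (median 5.34) on the Western diet and 4.52 to 5.57 (median 4.96) on the control diet. Cox7a1, also of heart, muscle and brown fat, had 6.63 to 7.17 (median 7.0) with quercetin, 6.51 to 7.92 (median 6.70) on the Western diet and 5.71 to 7.85 (median 6.75) on the control diet. None of these 3 passed in any comparison, their diets overlapped, and the high Cox7a1 values of the Western and control diets were again those of Western replicate 3 and control replicate 3.

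Within each mouse, the log2 signal of the general form was subtracted from that of the tissue isoform, which cancels a shift of the whole array. Differences between diets were tested by an exact two-sided permutation test over every split of the 18 mice, adjusted over 8 tests, and none of the 8 passed. Cox8b minus Cox8a ran from -3.19 to -2.02 (median -2.38) with quercetin and from -3.18 to -1.79 (median -3.09) on the Western diet, a difference of 0.40 (exact p = 0.056, adjusted 0.15). Between the Western and the control diet it differed by 0.78 (exact p = 0.028, adjusted 0.11), with control mice from -4.47 to -1.80 (median -3.71). It passed without control replicate 3, at 1.01 (exact permutation test, adjusted p = 0.0020). Without the 2 arrays with Ucp1, which were the highest of their diets in this difference and were left out after seeing the data, these differences were 0.54 and 0.88 and both passed (exact permutation test, adjusted p = 0.025 and 0.0075).

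Cox6a2 minus Cox6a1 was 0.54 higher on the Western than on the control diet (exact p = 0.015, adjusted 0.11) and differed by -0.09 with quercetin (exact p = 0.66). It ran from -8.19 to -7.22 with quercetin, from -8.23 to -6.76 on the Western diet and from -8.48 to -7.49 on the control diet. The Western difference passed without Western replicate 4 (0.63) or control replicate 1 (0.62). These were the lowest Western and the highest control mouse in this value, so that leaving either out must widen the difference. Cox4i2 minus Cox4i1 differed by -0.24 with quercetin against the Western diet (exact p = 0.075, adjusted 0.15) and by 0.29 between the Western and control diets (exact p = 0.11). Cox7a1 minus Cox7a2 differed by -0.08 and 0.37 (exact p = 0.73 and 0.20). Without Western replicate 3 the quercetin difference turned to 0.01 for Cox6a2 and 0.06 for Cox7a1.

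**Figure D3:**
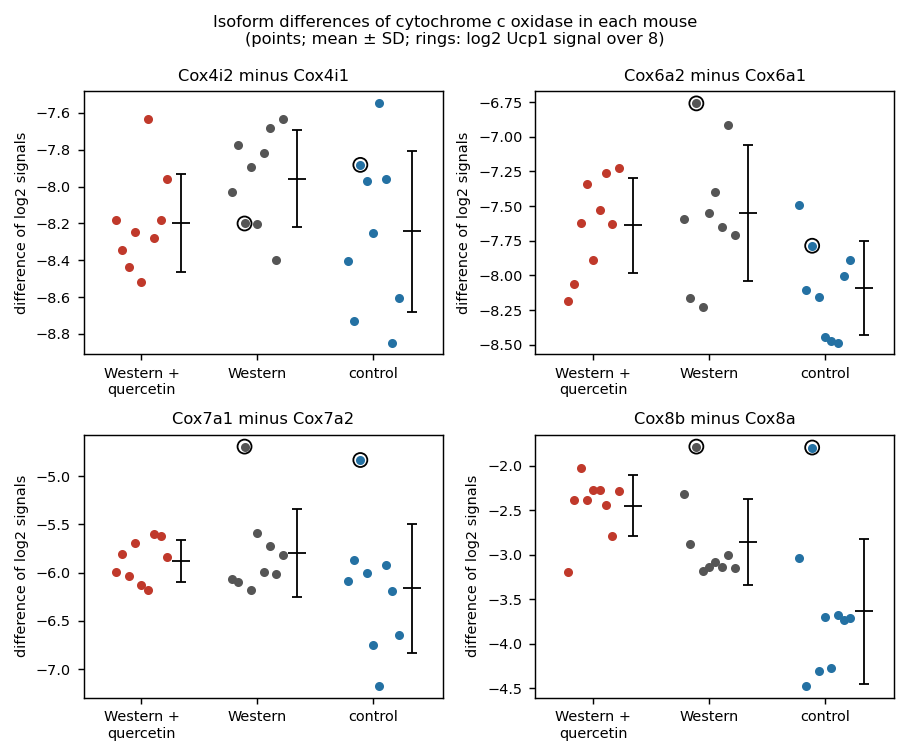
Difference of log2 signals between the tissue isoform and the general form (y axis) in each mouse (points) by diet (x axis), with mean and SD of 9 mice, for the 4 isoform pairs of complex IV. Rings mark Western replicate 3 and control replicate 3, whose log2 Ucp1 signal was over 8 and which are the highest of their diets for Cox8b minus Cox8a and for Cox7a1 minus Cox7a2.

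The testis isoforms Cox6b2, Cox7b2 and Cox8c were read at a low signal on most arrays and at a high one on few. Cox6b2 had 4.36 to 8.21 (median 5.17) with quercetin, 4.58 to 6.35 (median 5.02) on the Western diet and 5.15 to 10.8 (median 5.66) on the control diet. Cox7b2 had 0 to 7.25 (median 1.97) with quercetin, 0 to 4.48 (median 2.27) on the Western diet and 0 to 9.78 (median 1.94) on the control diet. Cox8c had 6.29 to 8.39 (median 6.95) with quercetin, 6.36 to 7.28 (median 6.68) on the Western diet and 6.08 to 11.1 (median 6.40) on the control diet.

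The highest value of all 3 testis isoforms was on control replicate 6, and the highest of the quercetin group on quercetin replicate 5. Those 2 arrays also had the highest means of 10 testis markers, 12.3 and 8.42, against a median of 3.40 over all arrays. None of the 3 isoforms passed in any comparison.

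**Figure D4:**
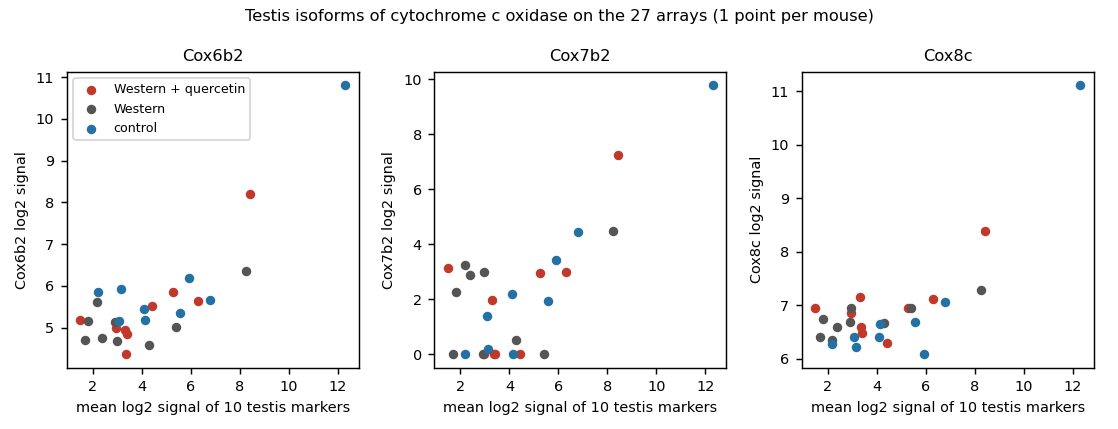
Log2 signal of Cox6b2, Cox7b2 and Cox8c (y axes) against the mean log2 signal of 10 testis markers (x axis) on the 27 arrays, 1 point per mouse coloured by diet. The rightmost point is control replicate 6, which has the highest signal of all 3 isoforms (10.8, 9.78 and 11.1).

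Complex V was called lower in 7 of its 17 genes and higher in 1 on the Western diet, and higher in 1 and lower in 0 with quercetin, where 10 had an unadjusted p under 0.05. The median log2 fold change was 0.11 with quercetin and -0.14 on the Western diet. With a median shift alone the Western median was 0.001, and that of all genes was 0.07. Of the 41 members other than tissue and testis isoforms, 7 lay above that all-gene median. The sign for complex V as a whole depended on the scaling, while its median lay below that of all genes under each scaling. By its parts, the F1 head had 3 of 5 genes lower on the Western diet (Atp5a1, Atp5c1 and Atp5d, the alpha, gamma and delta subunits), the stalk 2 of 4 (Atp5h and Atp5pb) and the membrane subunits 2 of 5 (Atp5j2 and Atp5k) with 1 higher (Atp5mpl). Of the 3 genes for the proton-carrying c ring, Atp5g1, Atp5g2 and Atp5g3, 0 were called in any comparison, and 1 had an unadjusted p under 0.05, Atp5g3 on the Western diet (log2 fold change -0.11). A second bright probe set of Atp5a1 gave -0.08 with quercetin, where the one used gave 0.19. Atp5b, the catalytic beta subunit, had 0.04 with quercetin and -0.16 on the Western diet, neither past the threshold.

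Atp5pb had log2 signals from 12.48 to 12.75 (median 12.53) with quercetin, from 12.26 to 12.52 (median 12.34) on the Western diet and from 12.44 to 12.59 (median 12.52) on the control diet. A single Western mouse, replicate 4, lay within the range of the other diets, and the other 8 lay below every quercetin and every control mouse. Atp5pb rose with quercetin by 0.23 ± 0.05 (limma adjusted p = 0.034) and fell on the Western diet (log2 fold change -0.16 ± 0.05, limma adjusted p = 0.016). Its second probe set gave 0.08 and -0.17, neither past the threshold. The rise with quercetin lost its call without any 1 of the 10 arrays that decided Uqcrc2 and also without Western replicate 6, with log2 fold changes between 0.21 and 0.25.

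Atp5k, the e subunit, which takes part in the pairing of ATP synthases in the membrane, had 11.85 to 12.17 (median 12.02) with quercetin, 11.66 to 11.91 (median 11.82) on the Western diet and 11.87 to 12.21 (median 12.01) on the control diet. It fell on the Western diet by 0.22 on the log2 scale (SE 0.05, limma adjusted p = 0.0043), and 8 of 9 Western mice lay below all control mice. With quercetin 7 of 9 mice lay above all Western mice, for a log2 fold change of 0.22 ± 0.05 that missed the threshold (limma adjusted p = 0.065). The other 2 probe sets of Atp5k gave 0.23 and 0.29 with quercetin.

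Atp5mpl, a small proteolipid of the membrane part, went the other way. It had 11.03 to 11.20 (median 11.15) with quercetin, 10.96 to 11.20 (median 11.12) on the Western diet and 10.78 to 11.05 (median 10.94) on the control diet. Atp5mpl rose on the Western diet against control by 0.17 ± 0.05 (limma adjusted p = 0.0079), with 6 of 9 mice above all control mice. It was also higher with quercetin than on the control diet by 0.21 ± 0.05 (limma adjusted p = 0.0069), with 7 of 9 mice above all control mice. Quercetin and Western mice overlapped, with a difference of 0.03 (limma adjusted p = 0.83). Atp5md, another small membrane subunit singled out after its values were seen, had 0.44 ± 0.13 with quercetin relative to Western mice, short of the threshold (limma adjusted p = 0.13).

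In 6 members, namely Atp5a1, Atp5d, Cox6b1, Sdhb, Uqcrb and Uqcrc2, at least 8 of 9 quercetin mice lay above all Western mice, which was so for 0.83% of all genes. In 8 members, namely Atp5h, Atp5k, Atp5pb, Cox5b, Sdhb, Uqcrb, Uqcrc2 and Uqcrfs1, at least 8 of 9 Western mice lay below all control mice, which was so for 0.863% of all genes.

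Within a diet, single mice were high or low in many members at once. The mean of the 41 members other than tissue and testis isoforms, taken relative to the mean of all 27 arrays, ran from -0.11 to 0.27 (median 0.05) with quercetin, from -0.18 to 0.01 (median -0.10) on the Western diet and from -0.10 to 0.19 (median 0.07) on the control diet. In this mean, 6 of 9 quercetin mice lay above all Western mice, and 4 of 9 Western mice lay below all control mice. With a median shift alone both numbers were 0, and without normalization they were 5 and 1. Under the median shift, control replicate 6 lay at -0.61 and the next lowest control mouse at -0.10. Western replicate 6 lay at 0.31 and the next highest Western mouse at 0.05. These arrays had the highest and the lowest median signal before normalization, 54.3 and 25.1. Quercetin replicate 3 was the highest of its diet in 31 of the 41 members and quercetin replicate 8 the lowest in 26. Western replicate 6 was the highest of its diet in 20 and Western replicate 2 the lowest in 11, and control replicate 5 was the highest of its diet in 20 and control replicate 6 the lowest in 23. The SD within a diet had a median of 0.13 over these members, from 0.07 for Cox6a1 to 0.30 for Atp5g1, and a median of 0.39 over all genes. Most of these members had high signals, whereas all genes include those near the floor, so that these medians do not compare genes of like signal.

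**Figure D5:**
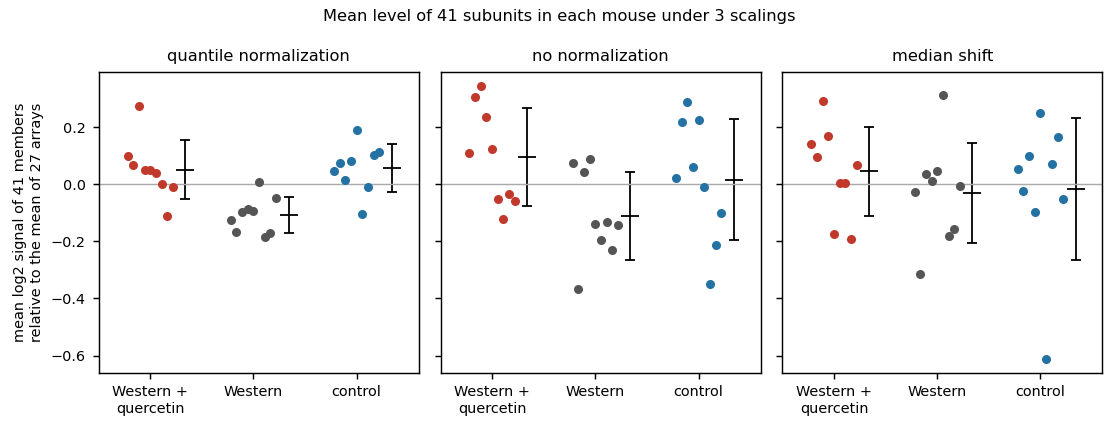
Mean log2 signal of the 41 members relative to the mean of the 27 arrays (y axis) in each mouse (points) by diet (x axis), with mean and SD of 9 mice, under quantile normalization, no normalization and a median shift. Under quantile normalization 6 quercetin mice lie above all Western mice, and with a median shift the diets overlap throughout. In the median shift panel the lowest control point is replicate 6 (-0.61) and the highest Western point is replicate 6 (0.31).

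Other measures of the arrays moved with the same diets. The log2 ratio of the 3' to the 5' probe sets of actin, a measure of RNA and labelling quality, was 1.14 ± 0.19 with quercetin, 0.785 ± 0.12 on the Western diet and 1.11 ± 0.29 on the control diet (SD, n = 9 each). It ran from 0.58 to 0.92 on Western arrays, from 0.87 to 1.37 with quercetin and from 0.84 to 1.62 on control arrays. A fit with this ratio therefore cannot tell it apart from diet, and calls can be lost in it for any gene. With this ratio as a covariate, the median log2 fold change of the 41 members was 0.11 for quercetin against the Western diet, with 34 above 0 and 0 called, and -0.11 for the Western against the control diet, with 3 above 0 and 4 called. The medians of all genes were 0.004 and 0.02. The median of complex II with quercetin was -0.003 in that fit, its sign turned. The mean of 12 macrophage markers ran from 8.68 to 10.5 with quercetin, from 9.73 to 10.9 on the Western diet and from 8.28 to 9.80 on the control diet. Of these markers 11 of 12 rose on the Western diet against control, with 11.3% of all genes. With quercetin against the Western diet 0 of 12 were called, with 0.253% of all genes higher and 0.077% lower. The median log2 fold change of the 12 was -0.74 there. The part of the macrophage markers in the members' differences was not tested.

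Genes that build, feed or serve these complexes were read from lists. Of 49 assembly and expression factors, 42 were measured, and 0 were called with quercetin against the Western diet (0.253% of all genes higher, 0.077% lower). At an unadjusted p under 0.05, 11 were higher and 1 lower by limma in that comparison, where 7.31% and 6.41% of all genes were. Against control mice, 8 rose (19%) and 0 fell with quercetin, with 5% and 1.65% of all genes. On the Western diet 7 rose (16.7%) and 5 fell (11.9%), with 11.3% and 6.44% of all genes. Cox17, the copper carrier for complex IV, averaged 11.30 ± 0.09 with quercetin, 11.07 ± 0.11 on the Western diet and 11.31 ± 0.15 on the control diet (SD, n = 9 each). It fell on the Western diet (log2 fold change -0.24, limma adjusted p = 0.0053) and had 0.23 with quercetin (limma adjusted p = 0.081). Dmac2l, a coupling factor of complex V, likewise fell on the Western diet (-0.25, limma adjusted p = 0.045) and had 0.34 with quercetin (limma adjusted p = 0.077).

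Of 8 other enzymes that pass electrons to ubiquinone, 0 were called with quercetin against the Western diet. At an unadjusted p under 0.05, 3 were higher there, as were 7.31% of all genes. On the Western diet 4 fell, namely Gpd2, Sqor, Prodh and Chdh (50%, with 6.44% of all genes), and 0 rose (11.3% of all genes). Chdh, choline dehydrogenase, averaged 8.19 ± 0.50 with quercetin, 7.65 ± 0.35 on the Western diet and 8.76 ± 0.57 on the control diet (SD, n = 9 each). Its log2 fold change was -1.11 on the Western diet (limma adjusted p = 0.00054) and 0.54 with quercetin (limma adjusted p = 0.23). Etfb, a subunit of the electron transfer flavoprotein, had 0.17 with quercetin (limma adjusted p = 0.24). Gpd2 and Prodh were also lower with quercetin than on the control diet (25% of the 8, with 1.65% of all genes).

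Of 10 carriers of phosphate and adenine nucleotides, 0 were called with quercetin against the Western diet. At an unadjusted p under 0.05, 3 were higher there, as were 7.31% of all genes. On the Western diet Slc25a23 and Vdac3 fell (20%, with 6.44% of all genes) and Slc25a24 rose (10%, with 11.3% of all genes). Vdac3, a pore of the outer membrane, averaged 11.06 ± 0.12 with quercetin, 10.75 ± 0.09 on the Western diet and 10.97 ± 0.23 on the control diet (SD, n = 9 each), and had 0.31 with quercetin (limma adjusted p = 0.064). Slc25a4, the heart and muscle form of the ADP/ATP carrier, had 0.30 (limma adjusted p = 0.12). Of 6 mitochondrially encoded subunits of complexes III to V, 0 were found among the genes measured under the symbols searched, so that they were not tested.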

How the data were processed

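RNA of EAT from 27 mice was hybridized to Affymetrix mouse genome arrays, 1 per mouse. The deposited values are linear signal intensities of 45101 probe sets, made by the authors with Microarray Suite and GeneSpring. Their medians differed between arrays, and whether they had been scaled before deposit was not settled. Results given without normalization are those with none added here. Control probe sets (64) were removed, and signals were quantile-normalized, raised to 1 where lower and converted to log2. By the platform annotation, 34945 probe sets had 1 gene, 932 had several and were left out, and 9160 had none. Of the 48 members, 30 had more than 1 probe set.

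Genes were tested with limma 3.58.1 in R 4.3.3, fitting a mean for each diet on all 27 arrays, with a variance trend and Benjamini-Hochberg adjustment. Plots were made in Python 3.11.15 with matplotlib 3.10.9. The limma fit and a separately written exact permutation test were first checked on simulated data. The members and lists were chosen with earlier results of these data known. Given by mouse were members past the threshold with quercetin (against either diet), the 2 of each complex with the smallest p for quercetin against the Western diet, up to 4 called members with the largest changes in each direction on the Western diet (4 falls and 1 rise), and the isoforms. The number of arrays limits the precision.

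Alternatives changed the scaling (none, or a median shift), the floor (32), the pseudocount (16), the probe sets (averaged), the genes tested (the brighter ones), the variance model (no trend, or array weights), the test, the threshold (0.01) and the arrays in the fit. A replicate block and the actin ratio were added as terms. Leaving out arrays with hepatocyte markers or Ucp1 was chosen after seeing the data.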

Additional observations from a re-analysis of the deposited data

Results flagged for a closer look

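Of 78 groups of 9 mice examined (the named members and isoform differences in each diet), 11 had a sample far from the other 8, and chance gives about 1 in 20. Most lay on arrays whose marker genes also stood apart. On control replicate 6, which had the highest testis markers, the log2 signals of Cox6b2 (10.8), Cox7b2 (9.78) and Cox8c (11.1) lay far above the other control mice, and Uqcr10 (10.6) lay below them. On quercetin replicate 5, with the next highest testis markers, Cox6b2 (8.21), Cox7b2 (7.25) and Cox8c (8.39) lay above the other quercetin mice. Western replicate 3, the Western array with Ucp1 over a log2 signal of 8, stood above its group in Cox7a1 (7.92) and in Cox7a1 minus Cox7a2 (-4.69). Cox4i2 was high on quercetin replicate 6 (5.03), and Cox8a on Western replicate 6 (12.3). Causes were not tested.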

How the results depend on the processing

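The number of members called for quercetin against the Western diet, 2 as reported, was 0 without normalization, with a median shift, with the mean of all probe sets, in limma without a trend, at an adjusted p under 0.01, with the actin ratio as a covariate, and without the arrays with other tissue, liver or Ucp1 transcripts. It was 6 with a floor of 32, 12 among genes above the median mean, 13 in a fit of only the 2 diets, 18 by the methods' test and 20 with array weights, all higher. Of all genes, 0.253% were called higher and 0.077% lower as reported, and 2.61% and 2.91% by the methods' test. The setting with genes above the median mean also tested fewer genes. Leaving out single arrays gave 0 to 12, the 12 without control replicate 6, and 9 without quercetin replicate 8. For the Western against the control diet, 21 as reported, it was 1 without normalization or with a median shift, 12 with the mean of all probe sets, 8 at an adjusted p under 0.01, 4 with the actin covariate, 12 without arrays with other tissue transcripts and 10 without those with liver transcripts, and 14 to 24 without single arrays. For quercetin against the control diet, 2 as reported, it was 1 without normalization or with a median shift, 0 without arrays with other tissue transcripts, 4 with array weights, by the methods' test or without the Ucp1 arrays, and 2 to 4 without single arrays (4 without quercetin replicate 3). As reported, 11.3% of all genes were called higher and 6.44% lower for the Western against the control diet. For quercetin against the control diet these shares were 5% and 1.65%, and 5.35% and 1.57% by the methods' test. The number of all genes called can change with the setting too, so that member counts alone do not show how far the members stood apart.

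Replicate numbers showed no clear pairing of the mice. Of same-numbered pairs, 10 of 27 correlated over 0.1, as did 63 of 216 differently numbered pairs, with median correlations of 0.006 and -0.009. Only 3 arrays were closest to their own number. With the numbers as a replicate block, 0, 16 and 2 members were called in the 3 comparisons.

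With a floor of 32, the isoform differences for the Western against the control diet passed for Cox4i2 (0.17) and Cox6a2 (0.46), but 25 of 27 Cox4i2 and 9 of 27 Cox6a2 values lay at or under that floor, so that for Cox4i2 the difference is mostly that of Cox4i1 (-0.18) with its sign turned. Without the Ucp1 arrays, Cox8b had 0.54 and 0.88, and the quercetin differences of Cox6a2 (0.0105) and Cox7a1 (0.0586) turned sign, as they did without Western replicate 3. Over single arrays left out, quercetin against the Western diet gave -0.31 to -0.20 for Cox4i2, -0.17 to 0.01 for Cox6a2, -0.13 to 0.06 for Cox7a1 and 0.35 to 0.54 for Cox8b. The Western against the control diet gave 0.21 to 0.37, 0.44 to 0.63, 0.23 to 0.53 and 0.65 to 1.01. Cox6a2 passed there without Western replicate 4 or control replicate 1, and Cox8b without control replicate 3. Each left-out mouse was the lowest Western or the highest control mouse in the difference tested, so that leaving it out must widen that difference. Of the single members on the Western diet, Cox5b (0.0268) and Atp5a1 (0.007) turned with the mean of all probe sets and Atp5j2 (0.0236) with a median shift. Of the members' other values under alternatives, 309 kept direction and side of the threshold and 163 lost the call.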
